A study of Mus musculus with 58 samples.

Results

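The suppressor of cytokine signalling (SOCS) family was followed through 58 RNA-seq libraries of mouse CD4+ T cells in which the miR-17~92 microRNA cluster was intact, deleted or overexpressed. The 8 members, Socs1 to Socs7 and Cish, were taken by name, not by any measured value. All 8 were found among the 24028 genes of the count table, and all 8 were among the 13709 genes that passed a filter on low counts.

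SOCS proteins are feedback inhibitors of cytokine receptors that signal through Janus kinases (JAK) and STAT transcription factors. Each carries an SH2 domain, which binds phosphorylated tyrosines, and a C-terminal SOCS box, which recruits elongins and a cullin ubiquitin ligase. SOCS1 and SOCS3 also carry a short region that blocks the kinase itself, SOCS3 acts on receptors that contain gp130, and CIS, the product of Cish, is a classical STAT5-induced inhibitor of IL-2 receptor signalling and also restrains T cell receptor signalling. SOCS2 is best known for restraining the growth hormone receptor and is also STAT5-induced. SOCS4 and SOCS5 have long N-terminal regions and act on the epidermal growth factor receptor, SOCS6 binds KIT and other receptor tyrosine kinases, and SOCS7 binds the adaptor NCK.

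Cells came from mice of 3 genotypes. Wild-type (WT) mice had no Cre, whereas the knockout (KO, CD4cre.miR-17~92lox/lox) and the transgenic line (TG, a CAG-driven miR-17~92 transgene behind a loxP-flanked stop in Rosa26, opened by CD4cre) both carried Cre driven by Cd4 elements, so an effect of Cre cannot be told apart from that of the cluster in a comparison with WT. Naive CD4+ T cells were purified from spleens and lymph nodes of 10 mice, males and females pooled; ages are not used here. They were taken directly or cultured for 24 h or 48 h on anti-CD28 (0.2 µg/ml) plus anti-CD3, bound to the plate at 0.25 µg/ml (labelled very weak, here the lower dose) or 0.5 µg/ml (labelled weak, here the higher dose). Cultured cells also received IL-2 at 50 U/ml and naive cells did not, so the stimulus, the culture and IL-2 cannot be told apart. There were 4 libraries in each of the 15 groups except naive WT and naive KO cells, which had 3 (numbers 1, 2 and 4). Nothing states that libraries of 1 group came from separate mice, so p-values measure the spread between these libraries.

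Total counts ran from 19.2 to 20.8 M per library. The row of the miR-17 hairpin (Mir17) had 57 counts in all stimulated WT libraries together, 2 in stimulated KO and 140 in stimulated TG libraries, and 10, 3 and 542 in naive cells; it ran from 0 to 9 counts per stimulated WT library and from 2 to 19 per TG library, so single libraries are not told apart by it. The row of the host gene Mir17hg was highest in KO among stimulated libraries. It ran from 353 to 1205 counts per WT, 1574 to 2803 per KO and 390 to 1319 per TG library. Among naive libraries it was highest in TG, at 1178 to 2119 counts, against 518 to 703 in WT and 718 to 1087 in KO. That row holds sequence outside the hairpins and does not check the deletion. All 10 CD4 T cell markers were present in each genotype, with a summed level of 6199 to 6697 counts-per-million (CPM) in naive and 3693 to 4654 in stimulated WT libraries. Markers of other cells moved with stimulation: in naive and stimulated WT libraries the 8 B cell markers summed to 211 to 424 and 16.3 to 62.3 CPM, the 12 myeloid markers to 138 to 340 and 3.91 to 8.09 CPM (the Kupffer cell gene Clec4f was at 0 in stimulated libraries), the 7 erythroid markers, of which 5 were in the table and had counts, to 172 to 528 and 0.607 to 11.1 CPM, the 6 NK markers to 33.9 to 76.4 and 6.78 to 45.2 CPM, the 6 dendritic cell markers to 9.52 to 30.9 and 0.557 to 8.64 CPM and the 2 CD8 markers to 35.5 to 50.6 and 9.32 to 24.3 CPM. The part of these cells in the differences between naive and stimulated cells was not tested, and in bulk RNA fewer cells of a type and less RNA per cell cannot be told apart. Libraries that carried the same replicate number deviated together in the stimulated states, so the number was also fitted as a block, and for comparisons between genotypes in those states that value is given where it changes a call.

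The cluster encodes 6 mature miRNAs that fall into 4 seed families, and their seeds are what a target transcript is searched for. They lie at chr14:115043684-115044496 of GRCm38, plus strand, in their own host transcript. The RefSeq sequences follow, with the seed (bases 2 to 8) in capitals; miR-17-5p and miR-20a-5p share a seed, as do miR-19a-3p and miR-19b-3p.

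mmu-miR-17-5p: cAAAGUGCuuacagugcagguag
mmu-miR-20a-5p: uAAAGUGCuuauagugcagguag
mmu-miR-18a-5p: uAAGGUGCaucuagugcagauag
mmu-miR-19a-3p: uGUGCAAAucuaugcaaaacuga
mmu-miR-19b-3p: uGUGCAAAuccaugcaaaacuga
mmu-miR-92a-3p: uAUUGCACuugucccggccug

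For each member the GENCODE transcript with the longest coding sequence was taken, and among equals the one with the longest 3′ UTR. Other 3′ UTRs of a member were not searched. The 3′ UTR was searched on the transcript strand for the complement of each seed: GCACTTT for miR-17 and miR-20a, GCACCTT for miR-18a, TTTGCAC for miR-19 and GTGCAAT for miR-92a. Socs2 and Cish held none. The matches in 5 other members are shown with the 7 paired letters in capitals and the letter after them, since an A there is a feature of stronger sites. Each lies in the 3′ UTR of the member, in GRCm38: chr16:10783932-10783954, minus strand, for Socs1, chr11:117966159-117966181, minus strand, for Socs3, and on the plus strand chr14:47293225-47293247 and chr14:47295582-47295604 for Socs4, chr17:87136244-87136266, chr17:87136361-87136383 and chr17:87137186-87137208 for Socs5, and chr11:97398215-97398237 for Socs7.

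Socs1 (miR-19): catattcccagtatcTTTGCACa
Socs3 (miR-19): cagttcaactcagacTTTGCACa
Socs4 (miR-17 and miR-20a): cctcatctcgctgtgGCACTTTt
Socs4 (miR-18a): cacatttttaaagtaGCACCTTt
Socs5 (miR-18a): aaataactttacttgGCACCTTt
Socs5 (miR-19): gttctgtcctagccaTTTGCACt
Socs5 (miR-92a): ctttcaaagcataatGTGCAATt
Socs7 (miR-17 and miR-20a): ataaacaaaacaaatGCACTTTg

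Of the sites shown, those of Socs1 and Socs3 were followed by an A. Socs6 held 2 further matches, for the miR-17 and the miR-92a seed, and the latter was also followed by an A. Over 12478 tested genes with a 3′ UTR (median 935 bases), 29.6% held at least 1 of the 4 complements. The share rises with UTR length, which ran from 1087 bases for Cish to 5184 for Socs7 among the members. Among tested genes of like UTR length, 42.1% (Socs4), 33.1% (Socs6) and 42% (Socs7) held the miR-17 complement. For the miR-19 complement these shares were 15.7% (Socs1), 13.2% (Socs3) and 20.7% (Socs5). The share with any complement was not taken at like length. A match describes letters and is not a measured site.

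Promoter sequence is shown for Cish and Socs3, 2 members that moved in opposite directions on stimulation and had a window on hand, because STAT factors bind the palindrome TTCNNNGAA. RefSeq windows of GRCm38.p6 from 250 bases before to 50 bases after the start were on hand for Socs1, Socs3, Socs4 and Cish; a palindrome reads alike on both strands, and matches are in capitals. The Cish window is chr9:107296409-107296708, plus strand, and that of Socs3 is chr11:117969317-117969616, minus strand.

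Cish: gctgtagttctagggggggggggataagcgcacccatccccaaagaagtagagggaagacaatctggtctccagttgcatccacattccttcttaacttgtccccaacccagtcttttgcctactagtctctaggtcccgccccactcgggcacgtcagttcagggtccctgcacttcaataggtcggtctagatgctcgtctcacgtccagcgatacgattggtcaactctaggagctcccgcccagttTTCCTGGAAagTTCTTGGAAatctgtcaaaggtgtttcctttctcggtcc
Socs3: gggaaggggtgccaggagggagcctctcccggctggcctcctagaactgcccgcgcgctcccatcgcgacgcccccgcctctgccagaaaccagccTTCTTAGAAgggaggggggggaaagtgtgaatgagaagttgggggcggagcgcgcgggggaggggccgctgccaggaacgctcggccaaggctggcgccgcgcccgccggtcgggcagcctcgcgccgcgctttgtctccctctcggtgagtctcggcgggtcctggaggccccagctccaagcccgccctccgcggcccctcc

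Cish held 2 matches, TTCCTGGAA at the annotated start and TTCTTGGAA 11 bases after it. Socs3 held 1, TTCTTAGAA, 154 bases before the start of its window. That start is an internal one: the whole Socs3 window lies within the annotated gene, whose upstream end is at chr11:117970336. The windows of Socs1 and Socs4 held none. Of 32851 windows of 300 bases, 8.3% held at least 1 match and 0.457% held 2 or more.

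In naive WT cells the family was dominated by Socs3. Per kilobase of exon, Socs3 stood at 74.8 ± 3.13 CPM (SD, n = 3), followed by Socs1 at 18.2 ± 1.84, Socs4 at 14.5 ± 0.838, Cish at 10.2 ± 1.49 and Socs7 at 6.79 ± 0.416. Socs5 and Socs6 were low and alike, at 3.80 ± 0.706 and 3.79 ± 0.482 CPM per kilobase, and Socs2 was lowest at 0.960 ± 0.0303. After 48 h at the lower dose the order was another. Cish then led with 81.3 ± 32.7 CPM per kilobase (n = 4), ahead of Socs1 at 33.9 ± 14.2, Socs2 at 21.2 ± 3.51 and Socs3 at 13.6 ± 8.11. Socs4 stood at 10.7 ± 1.83, Socs7 at 6.97 ± 0.916, Socs6 at 3.56 ± 0.351 and Socs5 at 2.96 ± 0.392 CPM per kilobase. The order per kilobase depends on the exon lengths deposited with the counts. For Socs1 (1339 bases) and Socs4 (2154) they are shorter than the 3′ UTR searched above (1993 and 5182 bases). The total count behind a member over all libraries ran from 18236 (Socs5) to 147152 (Cish), and the lowest count in any library was 32 (Socs2). Without a stated strand setting, reads of Cish cannot be told apart from those of Gm17040 and Gm17041, which overlap it on the opposite strand.

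**Figure D1:**
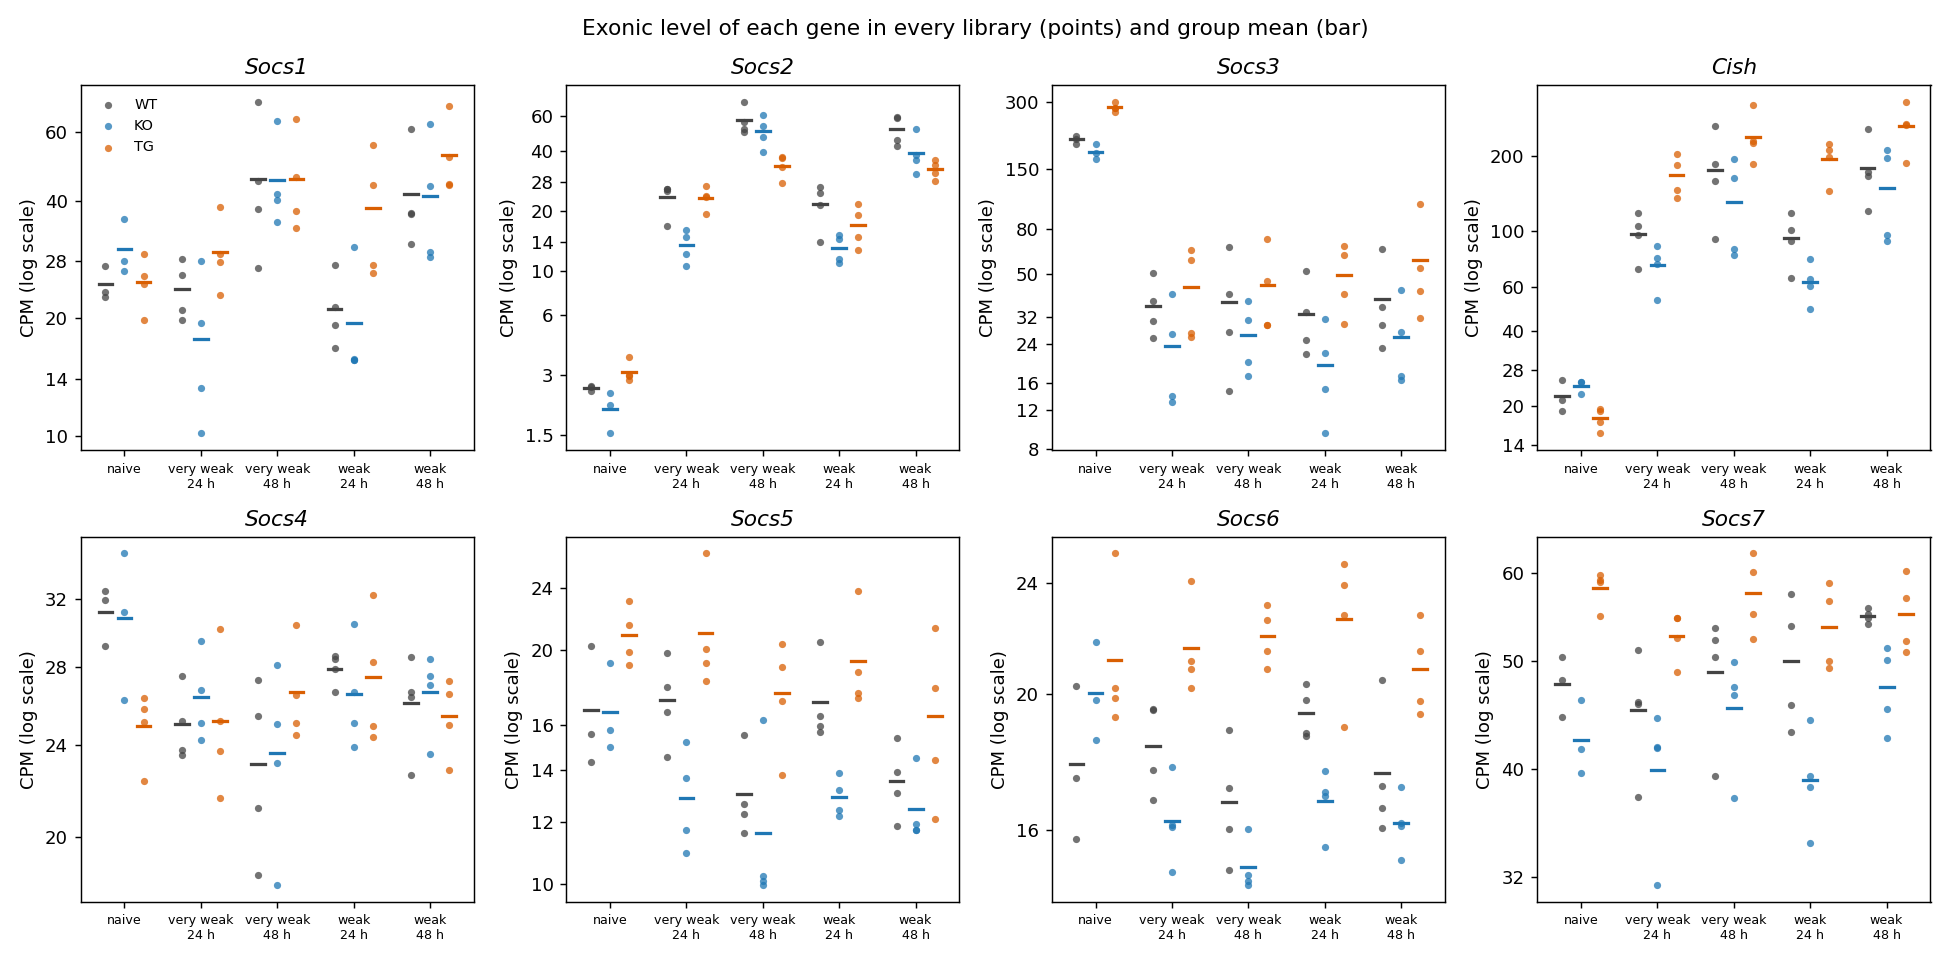
Level of each of the 8 members in every library, in CPM on a log axis, with the 15 groups along the horizontal axis and genotype by colour; points are libraries and bars are group means. Socs2 and Cish sit lowest in the naive groups and Socs3 sits highest there.

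Stimulation of WT cells raised Cish and Socs2 and lowered Socs3 in each of the 4 stimulated states. Over the 4 states, 17 of 32 member-by-state differences from naive cells passed the test (edgeR quasi-likelihood F test, Benjamini-Hochberg adjusted p under 0.05), 10 higher and 7 lower. By state, 4 members passed after 24 h at the lower dose, where 76.3% of all tested genes did, 6 after 48 h at it (77.7% of genes), 3 after 24 h at the higher dose (77.4%) and 4 after 48 h at that (78.2%). The members thus passed no more often than genes at large.

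Socs2 stood at 2.50, 2.66 and 2.61 CPM in naive WT libraries 1, 2 and 4. It reached 16.8, 25.2, 25.9 and 25.8 CPM in libraries 1 to 4 after 24 h at the lower dose and 50.0, 51.8, 56.0 and 70.9 CPM after 48 h. Every stimulated library was above every naive one, and the 48 h libraries were above those of 24 h. The rise was 9.03-fold at 24 h (log2 fold change 3.17 ± 0.23, SE; adjusted p = 2.35e-17) and 22-fold at 48 h (4.46 ± 0.24; 2.79e-22). At the higher dose it was 8.32-fold at 24 h and 19.8-fold at 48 h.

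Cish, the gene with the paired palindromes above, stood at 21.3, 19.2 and 25.5 CPM in naive WT libraries. Values were 97.1, 118, 105 and 71.1 CPM after 24 h at the lower dose and 186, 264, 93.3 and 159 after 48 h. Again no naive library overlapped a stimulated one, while the 2 times overlapped each other. The change was 4.44-fold at 24 h (log2 2.15 ± 0.31; adjusted p = 2.57e-08) and 7.98-fold at 48 h (3.00 ± 0.32; 1.03e-11), and at the higher dose 4.27-fold and 8.11-fold.

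Socs3, an inhibitor of gp130 receptors, went the other way. Naive WT libraries held 195, 212 and 205 CPM, against 37.5, 50.2, 25.6 and 30.4 after 24 h and 40.4, 66.3, 14.8 and 27.2 after 48 h at the lower dose. All naive libraries were far above all stimulated ones, and libraries 1 and 2 were above 3 and 4 in both stimulated groups. It fell 5.67-fold at 24 h (log2 -2.50 ± 0.44; adjusted p = 1.42e-06) and 5.48-fold at 48 h (-2.45; 2.04e-06), and 6.17-fold and 5.33-fold at the higher dose. The receptor genes Il6st (gp130) and Il6ra were also lower over the 4 stimulated states, with log2 changes of -2.70 ± 0.13 and -2.86 ± 0.16. This was not particular to them. Of 12 tested JAK-STAT receptors outside the IL-2 and common γ-chain group, 9 were lower and 2 higher, with a median of -1.60. Of all genes 42% were lower.

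Socs1 rose at 48 h and not at 24 h. Naive WT libraries stood at 27.2, 23.3 and 22.6 CPM, those of 24 h at the lower dose at 20.9, 28.3, 19.8 and 25.8, and those of 48 h at 38.2, 71.7, 26.8 and 45.0. Library 3 of 48 h lay within the naive range. The log2 changes were -0.04 (adjusted p = 0.909) and 0.90 ± 0.31 (0.00862) for the lower dose, and -0.21 (0.547) and 0.77 ± 0.31 (0.0233) for the higher. The last of these calls was lost without the libraries numbered 2 (0.50, adjusted p = 0.057) or 4 (0.84, 0.0683).

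The members without a kinase inhibitory region and outside the STAT5-induced pair moved little. Socs4 fell by 0.32 ± 0.12 on the log2 scale at 24 h (adjusted p = 0.0176) and by 0.43 ± 0.12 at 48 h (0.00159) at the lower dose, from 31.2 ± 1.8 CPM in naive to 25.0 ± 1.83 and 23.1 ± 3.95 CPM. Socs5 fell by 0.36 ± 0.17 at 48 h at that dose (0.0486). Each of these calls was lost when the libraries of 1 number were left out: number 4 for Socs4 at 48 h (adjusted p = 0.13), 2 or 4 for Socs4 at 24 h (0.111 and 0.21) and 1 or 2 for Socs5 (0.196 and 0.507). Socs6 and Socs7 passed in no stimulated state of WT cells.

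Averaged over the stimulated states, 4 of 8 members differed from naive cells in WT (81.3% of genes did), 6 in KO (78.9%) and 4 in TG (83.3%). Cish rose by 2.57 ± 0.29 on the log2 scale in WT, 2.01 ± 0.28 in KO and 3.57 ± 0.27 in TG cells. Socs2 rose by 3.75 ± 0.22, 3.57 ± 0.22 and 3.04 ± 0.18, and Socs3 fell by 2.50, 2.92 and 2.55 in the same order. Beyond these 3 genes, Socs4 passed in WT (-0.29), Socs4 (-0.26), Socs5 (-0.41) and Socs6 (-0.32) passed as lower in KO, and Socs1 passed as higher in TG cells (0.71 ± 0.24; adjusted p = 0.0053). The fall of Socs4 was lost without number 2 or 4 in WT (0.104 and 0.15) and without 2, 3 or 4 in KO; that of Socs5 was lost without 2 (0.174) and that of Socs6 without 4 (0.0963).

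The difference in these responses between genotypes was tested as an interaction, and no member passed for KO (0.168% of genes did; 1 member at an unadjusted p under 0.05, 0 by DESeq2) or for TG (6.18%; 3 members, 1 by DESeq2). The TG interaction closest to passing was that of Cish, 1.0 ± 0.32 on the log2 scale (edgeR adjusted p = 0.0519; DESeq2 0.0267). Socs2 had an interaction of -0.72 ± 0.25 (0.079). With the replicate block both passed (Cish 0.96, 0.00591, and Socs2 -0.68, 0.046; 9.13% of genes did), though the numbers did not pair naive libraries.

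**Figure D2:**
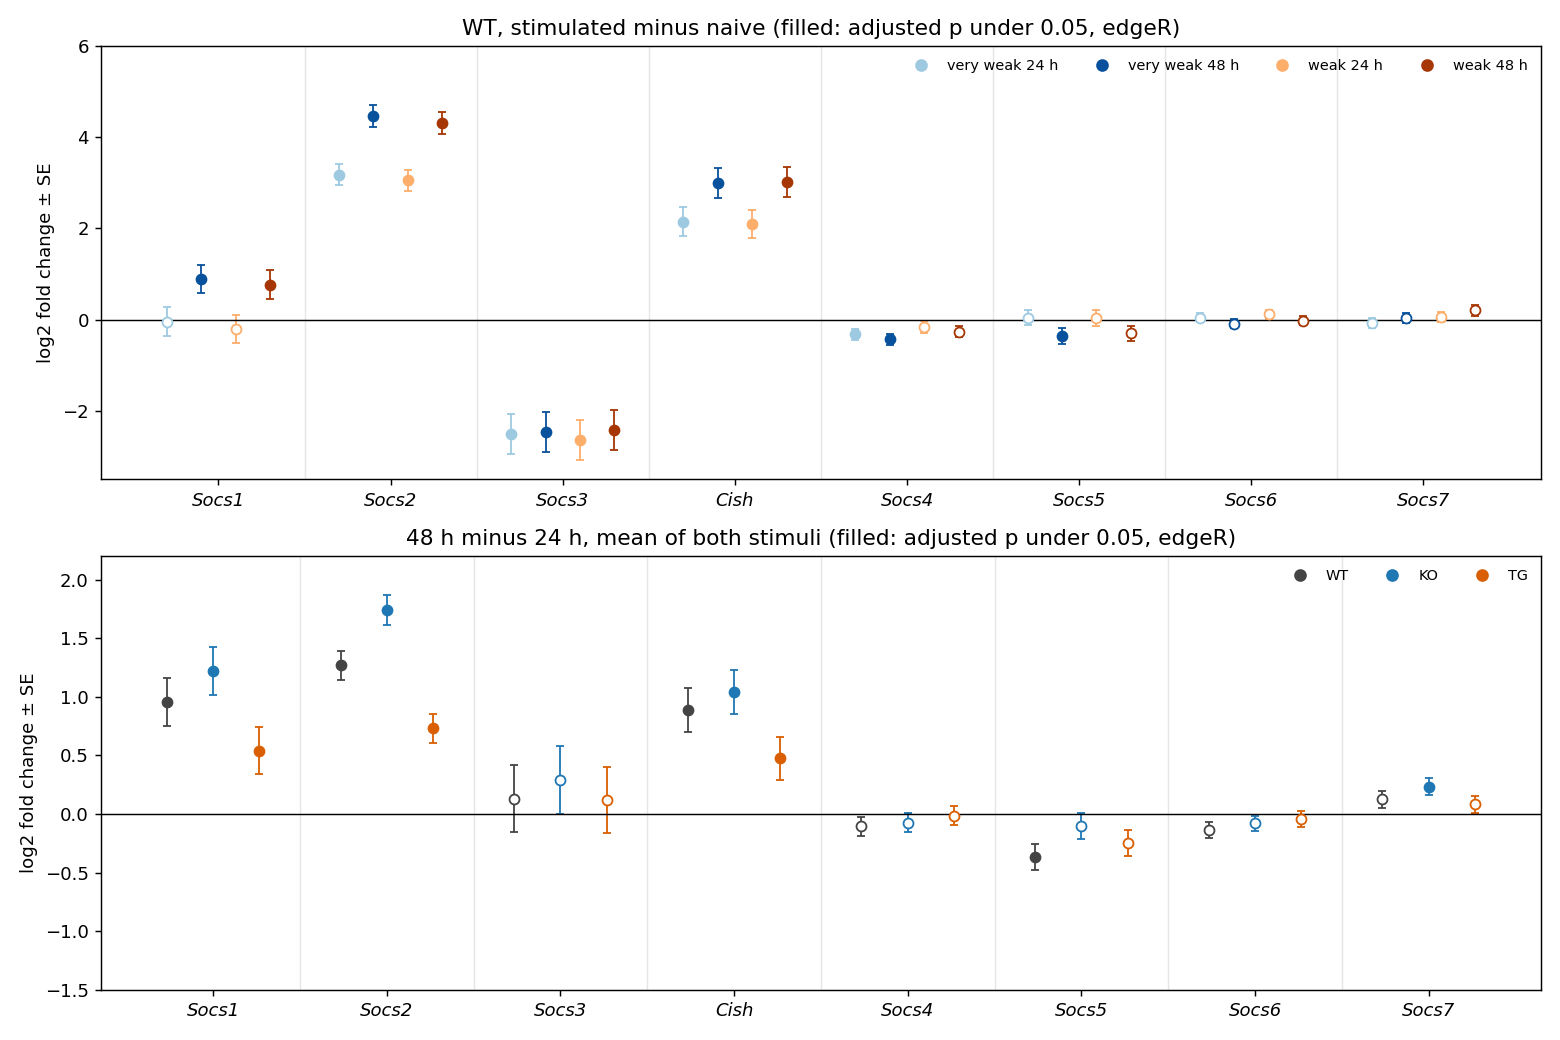
Top, log2 fold change with its SE of each member in WT cells from naive to each stimulated state (colours); bottom, from 24 h to 48 h in each genotype (colours), with filled points at an edgeR adjusted p under 0.05. Socs2 and Cish lie above 0 and Socs3 below 0 in the 4 stimulated states, and Socs2 has its largest step to 48 h in KO cells (1.74) and its smallest in TG cells (0.73).

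Time in culture separated the members a second time. From 24 h to 48 h, averaged over both doses, 4 members changed in WT (54.6% of genes did), 4 in KO (55.1%) and 3 in TG cells (53%). Socs2 rose by 1.27 ± 0.12 in WT, 1.74 ± 0.13 in KO and 0.73 ± 0.12 in TG cells on the log2 scale. Socs1 rose by 0.96 ± 0.20, 1.22 and 0.54 ± 0.20, and Cish by 0.88 ± 0.19, 1.04 ± 0.19 and 0.47 ± 0.19. The TG values of Socs1 (adjusted p = 0.0207) and Cish (0.0281) were lost without 1 number, 3 or 4 for Socs1 (0.0543 and 0.135) and 1, 2 or 4 for Cish (0.0767, 0.0618 and 0.111). Socs5 fell by 0.37 ± 0.11 in WT cells (0.00443; 0.0567 without number 1) and Socs7 rose by 0.23 ± 0.07 in KO cells (0.0063; 0.0556 without number 2). In TG cells Socs5 passed as lower with the replicate block (-0.25, 0.0218; 56.6% of genes) and by DESeq2.

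The size of the step from 24 h to 48 h was ordered KO, WT, TG for Socs1, Socs2 and Cish, but no interaction of time with genotype passed for a member (edgeR; 0.781% of genes passed for KO and 1.85% for TG, with 1 member each, Socs2, at an unadjusted p under 0.05 and 0 by DESeq2). For Socs2 the interaction was 0.47 ± 0.18 in KO (edgeR adjusted p = 0.251) and -0.54 ± 0.17 in TG cells (0.0983), and the latter passed with the replicate block (-0.53, 0.0311; 3.79% of genes). At 48 h levels also varied with the replicate number over the genotypes. Socs3 averaged 38.9, 64.5, 22.3 and 27.3 CPM in the libraries numbered 1 to 4 (n = 6 each), and Cish 202, 262, 127 and 165. For Socs1 number 2 stood alone, at 65.6 CPM against 39.8, 34.7 and 40.7 in numbers 1, 3 and 4, and Socs2 averaged 39.3, 41.5, 43.7 and 51.7.

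The dose of anti-CD3 made no difference that passed. Between the higher and the lower dose no member was called in WT, KO or TG cells, and 0% of all genes were (edgeR; 2, 0 and 1 members at an unadjusted p under 0.05, and 0 by DESeq2). The log2 differences ran from -0.25 to 0.29. With the replicate block 8, 10 and 11 genes passed in the 3 genotypes, none of them a member.

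Loss of the cluster went with lower Socs2 at 24 h. In KO against WT cells, Socs2 passed after 24 h at the lower dose, where 1.06% of genes did, and after 24 h at the higher dose (1.4%). No member passed in naive cells (0.0365% of genes) or at 48 h at the lower (4.63%) or the higher dose (5.04%); 0, 0 and 2 members had an unadjusted p under 0.05 there, and DESeq2 called 0 in each. At 24 h DESeq2 called 1 member at the lower and 2 at the higher dose, where 241 and 328 of all genes passed. The median log2 difference of the 8 members was -0.01 in naive cells, -0.41 and -0.38 at 24 h and -0.16 and -0.17 at 48 h at the lower and the higher dose.

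At the lower dose Socs2 stood at 16.8, 25.2, 25.9 and 25.8 CPM in WT and 10.6, 16.1, 12.2 and 14.8 CPM in KO libraries at 24 h. The 2 groups did not overlap, and WT library 1 lay well below the other WT libraries. The log2 difference was -0.80 ± 0.18 (edgeR adjusted p = 0.0103). At the higher dose WT libraries held 13.9, 24.7, 26.4 and 21.3 CPM and KO libraries 11.0, 14.5, 15.2 and 11.5. WT library 1 lay among the KO libraries there, and the difference was -0.73 ± 0.18 (0.0202). At 48 h the differences were -0.19 ± 0.17 (0.611) and -0.39 ± 0.17 (0.191). In naive cells all 3 KO libraries (2.12, 1.53 and 2.46 CPM) were below the 3 WT libraries, with a difference of -0.35 ± 0.26 (0.996).

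These 2 calls depended on single libraries. At 24 h at the lower dose the call was lost without KO library 3 (adjusted p = 0.0594), and at the higher dose without KO library 1 (0.0723) or 4 (0.0824) or WT library 2 (0.0948) or 3 (0.112). Leaving out number 2, 3 or 4 in all groups ended both, at 0.083 to 0.206. With the replicate block both stayed called, at 0.00105 and 0.00327, and at 24 h at the higher dose Socs3 (-0.80, 0.0204; without the block -0.77, 0.44) and Socs7 (-0.35, 0.0288; without it 0.0686) passed too. With that block 2.55% and 3.18% of genes passed in the 2 states.

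Socs3 in KO cells at 24 h at the higher dose stood at 21.8, 31.0, 9.44 and 15 CPM, against 33.7, 51.7, 21.6 and 25.1 in WT. The KO library was lower than the WT library of its number in each case, while the groups overlapped. Socs7, whose product binds NCK, ran from 34.3 to 44.2 CPM in KO and from 43.2 to 57.4 CPM in WT libraries of that state. Socs5 did not overlap there, at 12.2 to 13.9 CPM in KO against 15.7 to 20.5 CPM in WT libraries, but did not pass in that state.

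**Figure D3:**
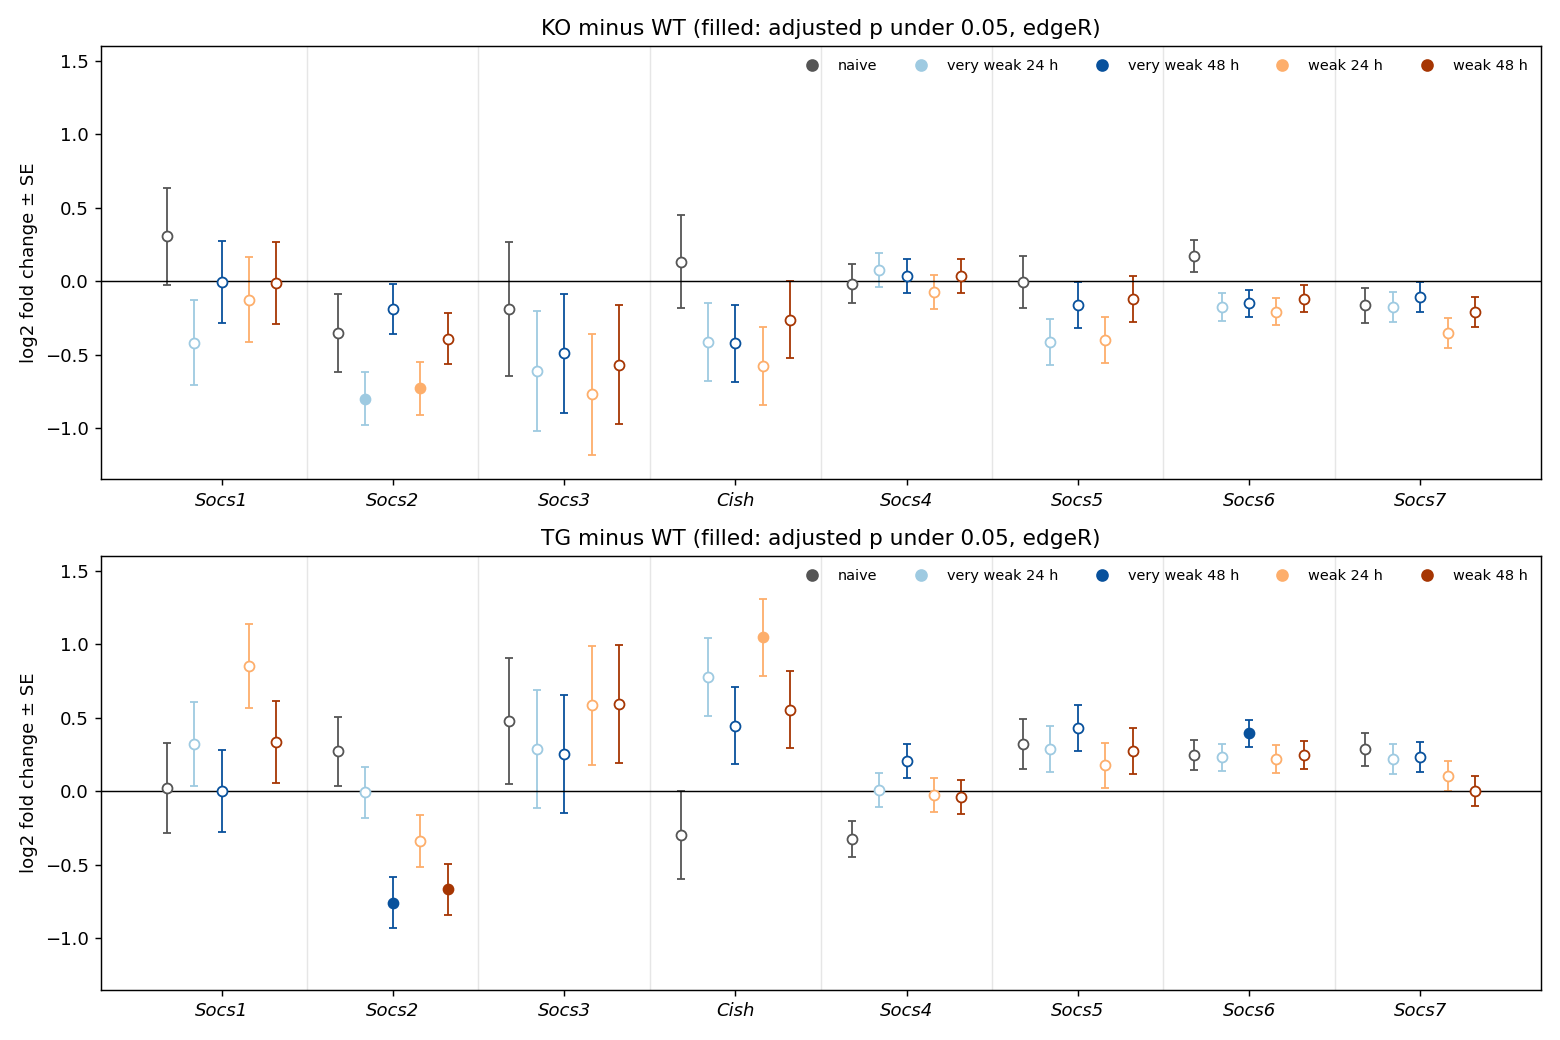
Log2 difference of KO (top) and TG (bottom) from WT with its SE for each member in the 5 states (colours; very weak is the lower and weak the higher dose), with filled points at an edgeR adjusted p under 0.05. Socs2 is below 0 in KO cells at 24 h and in TG cells at 48 h, and Cish is above 0 in TG cells in the 4 stimulated states.

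The TG calls of Socs2 (lower) and Cish (higher) went in opposite directions and fell in different states. In TG against WT cells, no member passed in naive cells (7.83% of genes did) or at 24 h at the lower dose (3.73%). Cish passed as higher at 24 h at the higher dose (4.81%), Socs2 as lower and Socs6 as higher at 48 h at the lower dose (13.3%), and Socs2 as lower at 48 h at the higher dose (9.96%). At an unadjusted p under 0.05 there were 3 members in naive cells and 3 at 24 h at the lower dose, and DESeq2 called 0 in either. DESeq2 called 2 members at 24 h at the higher dose (842 of all genes). At 48 h it called 3 at the lower (2030 genes) and 1 at the higher dose (1514 genes).

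Cish at the higher dose at 24 h stood at 91.9, 118, 101 and 65.2 CPM in WT and at 212, 223, 198 and 145 CPM in TG libraries. The groups did not overlap, and each TG library was above the highest WT library. The log2 difference was 1.05 ± 0.27 (edgeR adjusted p = 0.012), a call that was lost without TG library 2 (0.0549), without WT library 4 (0.0759), or without number 1 or 4 in all groups (0.167 and 0.0649). At the lower dose the values were 97.1, 118, 105 and 71.1 CPM in WT and 184, 204, 136 and 147 CPM in TG libraries, again without overlap. That difference, 0.78, had an adjusted p of 0.0941, and 0.00707 with the replicate block. At 48 h at the higher dose WT libraries held 172, 257, 120.3 and 166 CPM and TG libraries 268, 330.1, 188 and 265 CPM. The groups overlapped, though each TG library was above the WT library of its number, and the difference of 0.56 had an adjusted p of 0.186 without and 0.0301 with the block.

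Socs2 at 48 h at the lower dose stood at 50.0, 51.8, 56.0 and 70.9 CPM in WT and at 36.7, 37.3, 27.8 and 33.4 CPM in TG libraries. All TG libraries were below all WT libraries. The log2 difference was -0.76 ± 0.17 (edgeR adjusted p = 0.00188; 0.0586 without number 4). At the higher dose WT libraries held 42.6, 45.3, 58.6 and 59.5 CPM and TG libraries 36.1, 31.2, 28.3 and 34.2 CPM. The groups were again apart, by -0.67 ± 0.17 (0.0077), a call lost without number 2, 3 or 4 (0.0667 to 0.103). Within numbers 1 and 2 alone the difference at 48 h at the lower dose was -0.46 (0.29) and within 3 and 4 it was -1.05 (0.00311). In naive cells Socs2 was instead higher in the 4 TG libraries (3.02, 2.99, 2.82 and 3.69 CPM) than in the 3 WT libraries, with a difference of 0.27 ± 0.24 that did not pass (0.549).

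Socs6, which binds receptor tyrosine kinases, stood at 18.8, 16, 17.1 and 15 CPM in WT and at 21.4, 23.1, 20.8 and 22.6 CPM in TG libraries at 48 h at the lower dose. The groups did not overlap, and the log2 difference was 0.39 ± 0.09 (edgeR adjusted p = 0.00284), lost without number 2 or 4 (0.0676 and 0.0675). With the replicate block Socs5 also passed in that state (0.42, 0.0216; 0.0574 without the block), as did Socs3 (0.63, 0.0441) and Socs1 (0.82, 0.0011; without it 0.85, 0.0737) at 24 h at the higher dose. With the block 6.71% and 18.8% of genes passed at 24 h and 48 h at the lower and 8.48% and 14.1% at 24 h and 48 h at the higher dose.

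In naive cells Socs3 had the clearest order of the genotypes. TG libraries held 283, 282, 302 and 271 CPM, WT libraries 195, 212 and 205, and KO libraries 176, 194 and 165. No genotype overlapped another, with means of 284 ± 12.9, 204 ± 8.51 and 178 ± 14.2 CPM. Neither difference passed in the fit over all libraries, at 0.48 ± 0.43 (TG against WT, edgeR adjusted p = 0.564) and -0.19 ± 0.45 (KO against WT, 0.997). That fit takes 1 spread per gene over all 15 groups. Socs3 varied more in stimulated groups, for example 57.7 ± 32.1 CPM in TG at 48 h at the higher dose. These SEs and p-values thus do not measure the spread of the naive libraries alone. Beside this order of Socs3, the 5 regulatory T cell markers, all with counts, also differed between the naive genotypes. They summed to 294 to 311 CPM in naive TG, 170 to 198 in WT and 135 to 143 in KO libraries. Their part in the order of Socs3 was not tested. Socs7 was likewise higher in naive TG cells (54.8 to 59.6 CPM) than in WT (44.6 to 50.4 CPM), and Socs4 was lower (22.4 to 26.3 against 29.1 to 32.5 CPM), without overlap and without passing (0.105 and 0.0956).

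To use the 4 stimulated states together, their counts were summed by genotype and replicate number into 12 pools, 4 of each genotype. In KO against WT pools no member passed (edgeR; 5.93% of genes did), 4 had an unadjusted p under 0.05, and DESeq2 called 1, Socs2. With the number as a block 5 members passed, all lower, where 19.4% of genes passed. The median log2 difference of the 8 members was -0.24, against 0.01 over all genes, and 7 of 8 were below 0.

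Socs2 pools 1 to 4 stood at 31.1, 37.0, 41.8 and 44.5 CPM in WT and 22.8, 28.7, 30.0 and 34.7 CPM in KO. Each KO pool was below the WT pool of its number, and the ranges overlapped. The log2 difference was -0.41 ± 0.13 (adjusted p = 0.0822; 0.0124 with the block; 0.0433 when WT pool 1 was left out). Over single libraries, KO was below WT of the same number and state in 16 of 16 cases. The cases share replicate numbers and are not independent, and no such count was taken over all genes.

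Socs3 pools stood at 36.7, 58.6, 21.3 and 28.1 CPM in WT and 26.5, 38.0, 14.4 and 16.5 CPM in KO. Pool 2 was highest in both genotypes, and each KO pool was below the WT pool of its number. The difference of -0.60 ± 0.39 (adjusted p = 0.392) became -0.61 ± 0.07 (0.000646) with the block. Cish showed the same layout, with 137, 190.3, 105 and 116 CPM in WT and 124, 144, 79.8 and 70.2 CPM in KO pools and a difference of -0.39 ± 0.24 (0.363; 0.0139 with the block). Socs5 (-0.28 ± 0.12, 0.197) and Socs7 (-0.21 ± 0.07, 0.116) passed with the block as well, at 0.0112 and 0.0409. Socs7 and Socs6 pools did not overlap between KO and WT; Socs6 had a difference of -0.16 ± 0.06 (0.136). Socs1 (-0.09) and Socs4 (0.02) stayed near 0.

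In TG against WT pools 2 members passed, Socs2 as lower and Socs6 as higher, where 13.6% of genes passed. TG pools of Socs2 held 26.1, 28.6, 25.4 and 26.5 CPM, all below the WT pools, with a log2 difference of -0.53 ± 0.13 (edgeR adjusted p = 0.0175). This call was lost without TG pool 1 (0.0518), WT pool 3 (0.0515) or WT pool 4 (0.0596), or without number 2, 3 or 4 (0.0833 to 0.118). Socs2 was thus lower than WT in both KO and TG pools, and the TG pools were the most even, at 26.6 ± 1.37 CPM (SD, n = 4). Socs6 pools held 18.7, 17.2, 18.6 and 17.6 CPM in WT and 22.2, 21.6, 20.4 and 22.8 CPM in TG. They did not overlap, and the difference was 0.27 ± 0.06 (0.0124; 0.0605 to 0.102 without number 1, 2 or 4).

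Cish was higher in each TG pool than in the WT pool of its number, with 222, 269, 177 and 195 CPM against the WT values above. The ranges overlapped at TG pool 3, which was below WT pool 2. The difference of 0.65 ± 0.24 had an adjusted p of 0.0911, of 0.042 without WT pool 2, and of 0.000714 with the block. Over single libraries TG was above WT of the same number and state in 16 of 16 cases. These cases share replicate numbers and are not independent, and such a count was not taken over all genes. With the block 6 members passed (29.3% of genes did), with Socs3 (0.43, 0.00167), Socs1 (0.32, 0.01) and Socs5 (0.29, 0.00821) added to these. The median of the 8 members was 0.28, against -0.01 over all genes. Markers moved in the same pools: in TG, 2 of 10 CD4 T cell markers were lower and of 5 regulatory T cell markers 2 were higher and 1 was lower, while in KO 1 of 5 regulatory T cell markers and 1 of 5 tested myeloid markers (of 12 listed) were higher. Over stimulated libraries the regulatory T cell markers summed to 698 to 1466 CPM in WT, 620 to 1241 in KO and 957 to 2809 in TG, and their part was not tested.

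**Figure D4:**
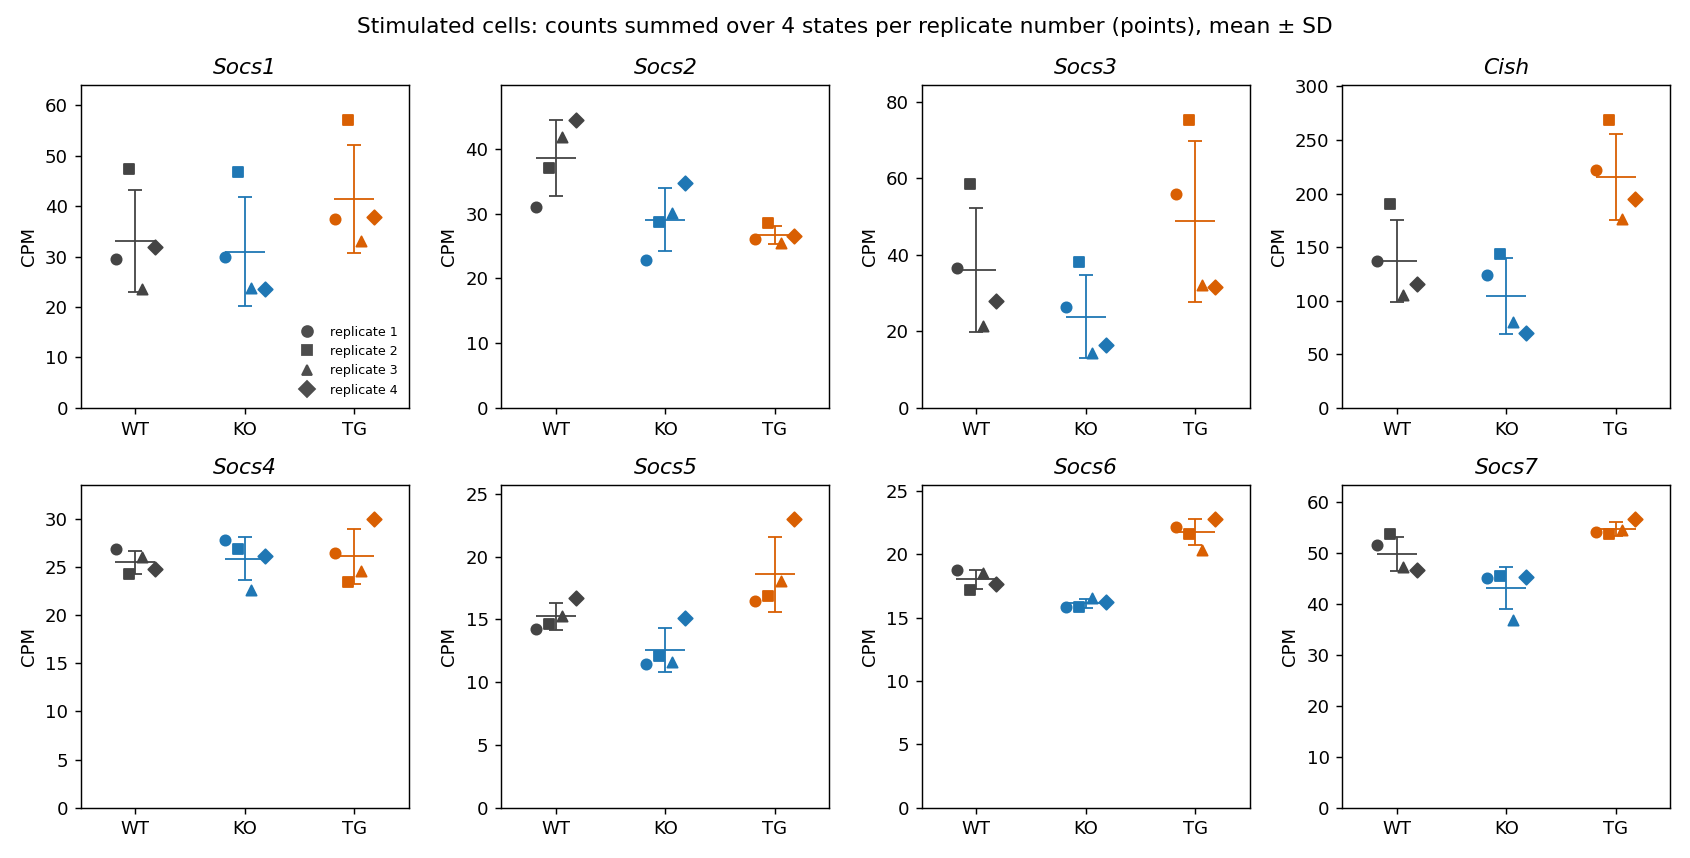
Level of each member in the 12 pools, in CPM from 0, by genotype, with a marker shape for each replicate number and the mean ± SD. Within each shape Cish and Socs3 rise from KO through WT to TG, and Socs2 is highest in WT.

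Both altered lines carry Cre, so TG against KO compares overexpression with deletion of the cluster, both with Cre. There 5 of 8 members were higher in TG pools and none was lower (44.3% of genes passed, 20.9% as higher). Cish differed by 1.05 ± 0.24 on the log2 scale (edgeR adjusted p = 0.004), Socs3 by 1.03 ± 0.39 (0.0471), Socs5 by 0.57 ± 0.12 (0.00252), Socs6 by 0.43 ± 0.06 (0.000147) and Socs7 by 0.34 ± 0.07 (0.00246). In Cish, Socs5, Socs6 and Socs7 the TG and KO pools did not overlap, but the share of all genes without overlap was not taken. Socs3 pools overlapped, and its call was lost in 10 of 16 fits that left out 1 pool or 1 number, among them those without KO pool 1, 3 or 4 (0.0606 to 0.115) or TG pool 1 or 2 (0.097 and 0.149). Socs1 did not pass (0.42, 0.21), but did with the block (0.44, 0.000853; 57% of genes passed with it), without KO pool 2 (0.036) and without number 2 (0.0201). Socs2 differed by -0.13 (0.45). This comparison shares its KO and TG libraries with those against WT.

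A table of intronic counts allowed a second readout, since introns follow unspliced transcripts. The exon-minus-intron difference between genotypes was fitted over 11350 genes in the stimulated libraries. No member passed for KO (2.07% of genes did; no member at an unadjusted p under 0.05) or TG (2.92%; Socs1 and Socs5 at an unadjusted p under 0.05). Socs5, with 3 seed matches, had an exon-minus-intron difference of 0.26 ± 0.11 in TG cells on the log2 scale (edgeR adjusted p = 0.248), and Socs1, with a miR-19 match, had -0.53 ± 0.26 (0.342). Socs2 had -0.31 ± 0.15 in KO cells (0.396). Intronic counts were few for some members, with 329 for Socs1, 1001 for Socs2 and 1035 for Socs3 over all libraries, against 49614 for Cish.

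Cish introns were higher on stimulation and in TG cells, as its exons were. The intronic level rose from 15.6 ± 5.85 CPM in naive WT cells to 220 ± 52.4 to 261 ± 72.3 CPM in the stimulated WT groups, and lay at 160 to 207 CPM in stimulated KO and 423 to 493 CPM in stimulated TG groups. Over pools the intronic difference of TG from WT was 0.97 ± 0.22 on the log2 scale (edgeR adjusted p = 0.0331), where 2.06% of genes passed and no other member did. KO against WT gave no member (0.11% of genes; Socs7 at an unadjusted p under 0.05). Between TG and KO, introns of Cish (1.31, 0.00127), Socs7 (0.52, 0.0162) and Socs6 (0.41, 0.0101) were higher (16.7% of genes passed).

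On stimulation of WT cells 3 members passed in introns alone (65.8% of genes did): Cish rose by 3.94 ± 0.33, Socs2 by 5.23 ± 0.53 and Socs6 by 0.81 ± 0.15 on the log2 scale. Socs3 introns changed by -0.51 ± 0.41 (edgeR adjusted p = 0.273), so that its exon-minus-intron difference was -1.98 ± 0.25 (9.8e-10). Such differences also passed for Cish (-1.44), Socs2 (-1.64) and Socs6 (-0.79), where 56.9% of genes passed. Intronic totals ran from 6.75 to 9.11 M in naive and from 2.95 to 4.39 M in stimulated WT libraries. Exonic and intronic counts were each scaled to their own totals, so this general fall is not in the values. The intronic changes and the exon-minus-intron differences on stimulation are thus relative to other genes. Other genes lie within the Socs6 introns, whose counts may include theirs.

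**Figure D5:**
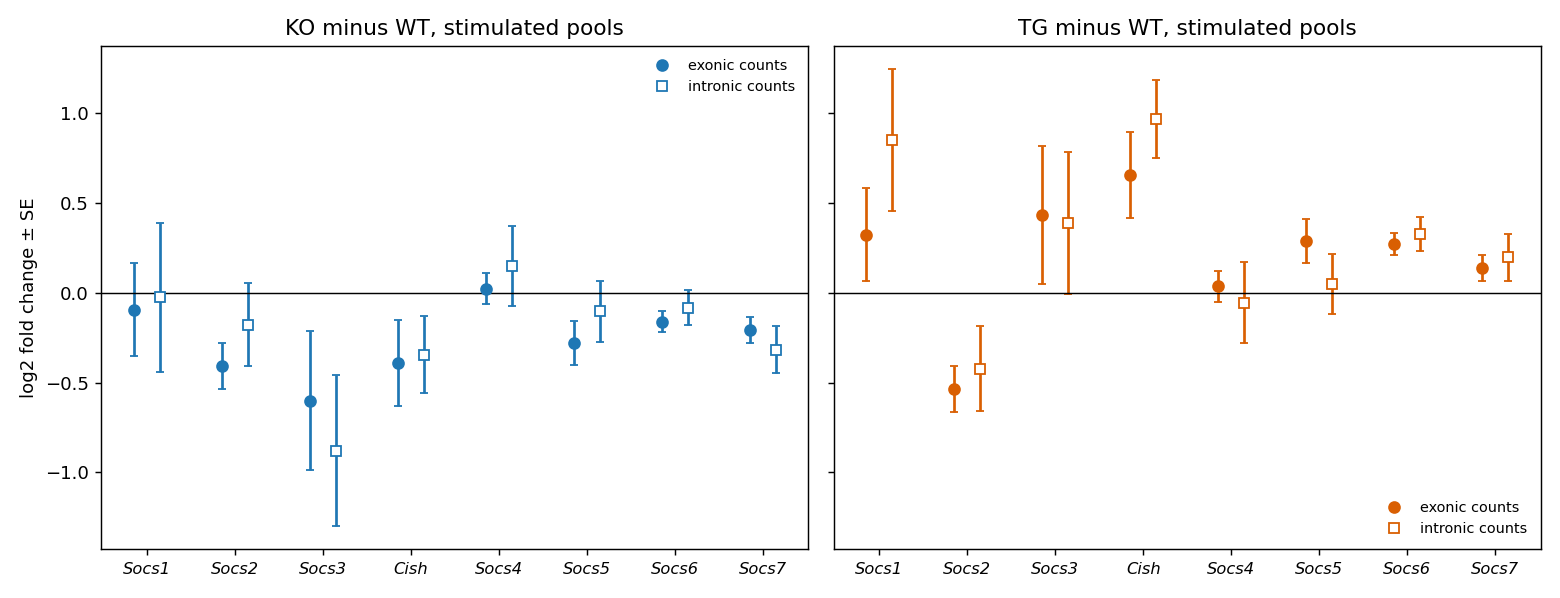
Log2 difference with its SE from exonic (filled) and from intronic counts (open) for each member over stimulated pools, KO (left) and TG (right) against WT. Cish is above 0 in TG cells in both readouts.

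The genes around the family were followed by lists, to be read against the 5.93% of all genes that passed in KO and the 13.6% in TG pools. Of 8 receptors of the IL-2 and common γ-chain group, 1 was lower in KO pools, Il4ra (-0.60 ± 0.11 on the log2 scale, edgeR adjusted p = 0.0104). In TG pools Il2ra, the IL-2 receptor α chain, was higher (0.65 ± 0.13, 0.00724), as was Il4ra (0.52 ± 0.11, 0.0111), and the common chain Il2rg was lower (-0.28 ± 0.06, 0.00876). Il2ra is also counted among the regulatory T cell markers. Of 14 other JAK-STAT receptors 11 were tested; none passed in KO, and in TG the interferon-γ receptor chain Ifngr2 was higher (0.48 ± 0.09) and Il6ra lower (-0.79 ± 0.18). Among 11 JAK and STAT genes, Jak1 (0.35 ± 0.07, 0.012) and Jak2 (0.48 ± 0.12, 0.0363) were higher in KO pools. In TG pools 1 was higher, Stat5a (0.56 ± 0.16, 0.0353), and 3 were lower, among them Jak1 (-0.44 ± 0.07, 0.00183) and Tyk2 (-0.28 ± 0.07, 0.0196).

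Of 16 listed cytokines 15 were tested; in KO pools Il4 was lower, with 0.159 ± 0.0779 against 1.0 ± 0.535 CPM in WT (-2.64 ± 0.49, edgeR adjusted p = 0.00933), and in TG pools 7 were higher and none lower, with Il4 at 10.2 ± 3.53 CPM (3.34 ± 0.42) and Il13 at 26.3 ± 32.6 CPM against 1.26 ± 0.770 in WT (4.38 ± 0.82). Of 8 partners of the SOCS box, the ubiquitin-conjugating Ube2f was lower in KO pools (-0.34 ± 0.07, 0.016) and none passed in TG; the scaffold Cul5 had -0.17 ± 0.06 in KO (0.128) and 0.17 ± 0.06 in TG (0.0932). Of 14 other negative regulators, the phosphatase gene Dusp3 was lower in KO (-0.71 ± 0.17, 0.031) and higher in TG pools (1.01 ± 0.17, 0.00281), and Pias1 was lower in TG (-0.25 ± 0.06, 0.0244).

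Other known STAT5 targets were set beside Cish and Socs2. Of 14 listed, the kinase gene Pim2 was lower in KO pools, at 166 ± 8.87 against 257 ± 18.7 CPM in WT (-0.63 ± 0.06 on the log2 scale, edgeR adjusted p = 0.000424), and Pim1 was higher in TG pools (0.48 ± 0.14, 0.0372). The list's median was -0.30 in KO and 0.31 in TG pools, against 0.01 and -0.01 over all genes. Between TG and KO 7 were higher and 1 lower, where 44.3% of all genes passed. On stimulation of WT cells 7 of the 14 were higher and 5 lower, where 81.3% of all genes passed, with Pim2 higher by 2.14 ± 0.11 and Pim1 lower by 0.75 ± 0.22, and 7 of 8 SOCS box partners were higher and 1 lower.

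Over the 15 group means each member was compared with 10307 other genes as a description, and groups that share a genotype, a state or replicate numbers are not independent points. For Socs2 the most alike were Inppl1 (Pearson r = 0.99), Ptpn9 and Fam71b, for Socs3 Pex5 (0.99), Abi3 and Ehd3, and for Cish Kcmf1 (0.98), Nek6 and Dclk1. Those of Socs1 were Mgat1 (0.95), Soat2 and Cd82, those of Socs5 Atxn7l3b (0.96), Man1a2 and Spast, and those of Socs6 Man1a2 (0.94), Fam91a1 and Lin7c. Socs7 (Slmap, 0.91, Hopx and Pip5k1a) and Socs4 (Arhgap5, 0.84, Rubcn and Mical3) had the least alike neighbours. Within the family, Socs5 and Socs6 (0.91) and Socs2 and Cish (0.90) went together, and Socs2 and Socs3 went opposite ways (-0.80).

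Ordered by level over the 15 groups, few neighbours were apart. Socs2 ran from 57.2 ± 9.47 CPM (WT, 48 h, lower dose) to 2.04 ± 0.468 (naive KO), with gaps between the sixth and the seventh group, above the naive groups and between each pair of them. Socs3 ran from 284 ± 12.9 CPM (naive TG) to 19.3 ± 9.30 (KO, 24 h, higher dose), with gaps around each naive group and none among the stimulated groups. Cish ran from 263 ± 58.1 CPM (TG, 48 h, higher dose) to 17.9 ± 1.82 (naive TG), with 1 gap, between the stimulated and the naive groups. For Socs1 (52.4 ± 12.1 to 17.7 ± 7.92 CPM), Socs4 (31.2 ± 1.8 to 23.1 ± 3.95), Socs5 (21.0 ± 3.78 to 11.6 ± 3.07), Socs6 (22.6 ± 2.56 to 15.1 ± 0.658) and Socs7 (58.1 ± 2.22 to 39.1 ± 4.07), neighbouring groups overlapped throughout the order. TG groups held the first 5 places of Socs6 and the first 4 of Socs5, and KO groups the last 4 of Socs5.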

How the data were processed

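The values are whole-number counts of reads per gene and library that the authors deposited, exonic and intronic counts apart; per the file headers and values they were not normalized. Of the tools, STAR 2.5.2a, FastQC 0.11.5, edgeR 3.24.3 and R 3.5 are listed with build mm10 in the submitters' processing notes. How reads were counted, on which annotation and strand, is not given in the sources used here. In 14.1% of values the intronic count was the larger, so the full table cannot include introns. Gene IDs were matched to RefSeq (23968 of 24028) or GENCODE symbols (7), and 53 had none.

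All 58 libraries entered a single edgeR 4.0.16 fit (R 4.3.3; quasi-likelihood F test, TMM factors 0.939 to 1.06, filterByExpr, 13709 genes kept, 43 residual degrees of freedom), with 1 coefficient per group. All groups of that fit share 1 estimate of the spread of a gene, so tests between naive groups also carry the spread of stimulated ones. Sums over the 4 stimulated states by genotype and replicate number gave 12 pools (13567 genes, 9 degrees of freedom). Adjusted p-values are Benjamini-Hochberg over all genes tested, with calls under 0.05. Levels are TMM-scaled CPM, and lengths are exon lengths. Overlap of groups or pools was read for the members only, so no share of all genes stands beside it. In the exon-minus-intron fit each library was a block. DESeq2 1.42.0 was an alternative, as were DESeq2 size factors, no filter, a replicate block, fits within numbers 1 and 2 or 3 and 4, and leaving out libraries.

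Libraries with the same number deviated together (every correlation over 0.1) in the KO and TG comparisons with WT in stimulated states (0.132 to 0.625) and in pools (0.249 to 0.655), not in naive cells, nor between times in every genotype; the labels do not state what a number marks. Named were the 8 members, up to 3 genes per pathway list with the smallest adjusted p in each pool comparison, and the 3 genes most alike to each member. Markers of other cells were named by list. The members and lists were chosen with earlier results of these data known. On simulated data for KO against WT, 48 of 100 genes changed 1.5-fold and 82 of 100 changed 2-fold were recovered in a single state (13539 genes), and 60 and 93 of 100 in pools (13450 genes). Of the calls, 6.47% were false in the single state and 3.77% in pools. The simulation gave all genes the same spread and held no effect of the replicate number. These shares therefore do not carry over to members with a wide spread, such as Socs1, Socs3 and Cish in stimulated cells. Reads carry no molecular identifiers, so counts cover counting error only.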

Additional observations from a re-analysis of the deposited data

Results flagged for a closer look

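Of 104 groups of 4 libraries (8 members in the 13 groups of 4), 7 held a library whose gap to its nearest neighbour was above Dixon's 95% critical share of the group's range, where chance gives about 1 in 20. Socs1 stood at 30.5 CPM in KO library 2 at 24 h at the higher dose, against 15.6 to 15.8 CPM in the others. Socs2 stood at 16.8 CPM in WT library 1 at 24 h at the lower dose, against 25.2 to 25.9 CPM, in the group that gave the larger KO difference; without that library the difference was -0.93 on the log2 scale (edgeR adjusted p = 0.00339). Socs5 was high in library 4 of 3 groups, at 16.2 CPM in KO at 48 h at the lower dose (others 9.97 to 10.2), at 14.5 CPM in KO at 48 h at the higher dose (others 11.7 to 12) and at 20.5 CPM in WT at 24 h at the higher dose (others 15.7 to 16.4). In naive TG cells Socs6 was high in library 2, at 25.2 CPM (others 19.3 to 20.2), and Socs7 was low in library 1, at 54.8 CPM (others 58.8 to 59.6).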

How the results depend on the processing

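The choices that moved counts of members called were the replicate block, the unit of replication and the libraries included. With the replicate block, calls over the 5 states went from 2 to 4 for KO and from 4 to 11 for TG, in pools from 0 to 5 and from 2 to 6, and the interactions with stimulation from 0 to 2 (Cish 0.96, adjusted p = 0.00591, and Socs2 -0.68, 0.046). The share of all genes called rose with the block too. In pools it went from 5.93% to 19.4% for KO and from 13.6% to 29.3% for TG. By state it rose in each of the 5 states for both genotypes, and for the TG interaction with stimulation from 6.18% to 9.13%. In naive cells, whose numbers do not pair the libraries, the TG calls the block added were Socs3 and Socs7 (7.83% of genes passed without it and 11.2% with it). With 16 libraries per genotype in place of pools 6 members passed for KO and 6 for TG. There 3349 and 4634 of all genes passed, against 805 and 1840 in pools. Those 16 libraries share replicate numbers and are not independent, so their counts do not stand for 16 replicates. DESeq2 called 1 for KO in pools (1417 of all genes) and 1 interaction (1054 of all genes for TG). Within numbers 1 and 2, 0 passed for KO and 2 for TG by state, and 5 for KO over stimulated states (2055 of all genes). Within 3 and 4, 2 passed for TG by state. Over stimulated states 4 passed there for KO (2430 of all genes) and 7 for TG (2771). These counts over stimulated states also rest on single libraries that share numbers, not on pools. Leaving out a replicate gave 0 to 3 calls for KO and 0 to 5 for TG by state, 0 to 1 and 0 to 3 in pools, 4 to 6 for TG against KO, 14 to 17 on stimulation of WT, 8 to 10 of KO and TG, and 9 to 12 for time. For KO in pools Socs1 ran from -0.36 to 0.12 over the leave-outs, and its sign reversed without replicate 4 (0.00079), KO replicate 3 (0.0064), KO replicate 4 (0.012) or WT replicate 2 (0.12). In pools the leave-outs called 129 to 894 of all genes for KO, 599 to 2238 for TG and 4427 to 6086 for TG against KO. For the other leave-outs no share of all genes stands beside the counts. DESeq2 size factors and no filter moved no count by over 1.5 times. The block also called the interaction of time with the TG genotype for Socs2 (-0.53, 0.0311), the fall of Socs5 from 24 h to 48 h in TG cells (-0.25, 0.0218), and, against naive WT cells, whose numbers pair with no stimulated group, Socs1 over the stimulated states (0.41, 0.016) and Socs7 at 48 h at the higher dose (0.23, 0.0369). With the block 3.79%, 56.6%, 82.9% and 80.1% of all genes passed in these comparisons, in that order. Depth limited Socs2 in naive cells most, where a library held as few as 32 counts.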
